A study of Mus musculus with 4 samples.

Results

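Cytochrome P450 families 1 to 3, without subfamily Cyp2b, were followed in the liver of mice whose cecum had been infused with a short-chain fatty acid or with saline. The members are the genes named by a symbol of these families on probe sets with exactly 1 gene symbol, leaving out Cyp2b. There were 48 such genes among 18820 measured, on 49 probe sets. They comprise 3 genes of family 1, 39 of family 2 and 6 of family 3, in 15 subfamilies. The rule that picks them uses names and no measured value.

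The acids were acetate, propionate and butyrate, which differ in the length of their carbon chain. Male C57Bl/6J mice of 16 to 17 weeks, kept for 6 weeks on semi-synthetic food with palm oil, received the stable-isotope labelled sodium salt of an acid at 0.3 M, or phosphate-buffered saline as control, through a permanent catheter in the cecum. All infusions ran at 0.2 ml/h for 6 h, which gave 2.4 mmol/h/kg of each acid. RNA of 6 acetate, 6 propionate, 4 butyrate and 6 control livers was pooled by group and each pool was hybridised to 1 array. With 1 array a group, every difference lacks a replicate check and could not be tested. The butyrate pool held the fewest livers. In whole liver, fewer cells of a type and less RNA per cell cannot be told apart.

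P450 enzymes are haem proteins of the endoplasmic reticulum that insert an oxygen atom into their substrate, with electrons passed on by a reductase and cytochrome b5. Families 1 to 3 oxidise most drugs and many foreign compounds in hepatocytes, and also steroids, bile acids, fatty acids and vitamins. Their genes are controlled by ligand-activated factors, the aryl hydrocarbon receptor for family 1 and the receptors PXR and CAR for many Cyp2 and Cyp3a genes. Many of the enzymes are found chiefly in hepatocytes around the central vein, and some are sex-biased in mouse liver.

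Levels are log2 expression values and differences are log2 ratios of 2 pools, so a ratio of 1 is a doubling. The level floor was 5.55, the median of the mean levels of all 18820 genes. At or above it lay 31 of the 48 members and 9410 genes. The 17 others lay near background, and a ratio of such values has no exact size. Probe sets of different genes were not set against each other in level, and close paralogs can share signal.

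The sequences that follow are the 250 bases before the annotated start of 6 members, because these members had the largest ratios at or above the floor or, for Cyp3a25, lie next to one of them. They come from RefSeq (GRCm38.p6) and are printed 5′ to 3′ on the strand of the gene. Capitals mark TATAAA on the printed strand, the nuclear receptor hexamers AGGTCA and AGTTCA on either strand, and the HNF4 motif CAAAGTCCA on either strand, with no overlap among them.
Cyp3a11, chr5:145879855-145880104, minus strand: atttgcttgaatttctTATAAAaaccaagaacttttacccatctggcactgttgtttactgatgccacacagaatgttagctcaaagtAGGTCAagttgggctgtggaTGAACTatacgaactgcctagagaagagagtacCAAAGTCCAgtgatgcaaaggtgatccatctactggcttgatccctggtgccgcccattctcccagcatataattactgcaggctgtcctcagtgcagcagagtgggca
Cyp3a44, chr5:145805875-145806124, minus strand: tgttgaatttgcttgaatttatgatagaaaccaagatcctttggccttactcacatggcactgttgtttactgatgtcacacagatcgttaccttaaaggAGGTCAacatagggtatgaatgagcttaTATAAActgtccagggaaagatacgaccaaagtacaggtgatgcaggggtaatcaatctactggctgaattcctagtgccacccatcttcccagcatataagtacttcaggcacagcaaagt
Cyp3a25, chr5:146009619-146009868, minus strand: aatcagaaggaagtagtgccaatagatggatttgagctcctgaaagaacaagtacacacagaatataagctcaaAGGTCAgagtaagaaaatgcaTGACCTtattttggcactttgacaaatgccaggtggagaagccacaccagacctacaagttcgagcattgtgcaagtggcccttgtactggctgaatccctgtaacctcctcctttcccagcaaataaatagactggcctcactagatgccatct
Cyp2a5, chr7:26835089-26835338, plus strand: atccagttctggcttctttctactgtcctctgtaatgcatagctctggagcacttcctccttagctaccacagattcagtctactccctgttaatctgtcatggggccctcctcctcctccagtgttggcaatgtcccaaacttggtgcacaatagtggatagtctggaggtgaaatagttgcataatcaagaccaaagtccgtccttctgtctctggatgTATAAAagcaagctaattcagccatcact
Cyp2c38, chr19:39463076-39463325, minus strand: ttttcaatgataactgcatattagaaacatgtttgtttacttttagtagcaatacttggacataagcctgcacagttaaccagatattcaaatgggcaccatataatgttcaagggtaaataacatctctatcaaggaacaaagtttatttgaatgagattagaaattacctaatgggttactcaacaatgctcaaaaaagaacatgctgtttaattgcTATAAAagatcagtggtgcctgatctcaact
Cyp2c39, chr19:39347096-39347345, plus strand: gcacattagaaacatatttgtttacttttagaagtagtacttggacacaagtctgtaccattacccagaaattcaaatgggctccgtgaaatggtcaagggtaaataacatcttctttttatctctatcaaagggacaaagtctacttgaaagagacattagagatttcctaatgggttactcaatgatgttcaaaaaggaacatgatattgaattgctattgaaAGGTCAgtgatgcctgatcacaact

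Cyp3a44, Cyp3a11 and Cyp3a25 stand next to one another on chromosome 5 in that order, and Cyp2c39 and Cyp2c38 are neighbours on chromosome 19. The upstream bases of Cyp3a11 and Cyp3a44 were 71.7% identical over 265 aligned columns, and those of Cyp3a11 and Cyp3a25 were 52.0% identical over 275. Cyp2c38 and Cyp2c39 shared 75.8% of 265 columns. AGGTCA was found in Cyp3a11 at 162 to 157 bases before the start, in Cyp3a44 at 150 to 145 and in Cyp3a25 at 176 to 171 and at 155 to 150. Cyp3a11 also held AGTTCA at 142 to 137 and CAAAGTCCA at 109 to 101. TATAAA lay 29 to 24 bases before the start in Cyp2a5 and 31 to 26 in Cyp2c38, against 234 to 229 in Cyp3a11 and 122 to 117 in Cyp3a44, while the Cyp2c39 window held AGGTCA at 25 to 20.

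Start windows were on hand for 40 of the 48 members, 43 windows in all, and not for Cyp2c23, Cyp2c54, Cyp2d12, Cyp2d13, Cyp2d22, Cyp2d34, Cyp2g1 and Cyp2u1. Of the 43, TATAAA was in 16, against 7.59% of 32851 windows of the same length. AGGTCA was in 11 (14.0% of all windows), AGTTCA in 4 (11.8%) and CAAAGTCCA in 6 (0.384%). GCGTG, the core bound by the aryl hydrocarbon receptor, was in 8 on either strand (28.2%). A match is no proof of a site.

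Most P450 levels were close in the 4 pools. None of the 48 members lay 1.5-fold above or below control with any acid. Across all 18820 genes the share at least 1.5-fold higher was 0.696% with acetate, 0.776% with propionate and 0.728% with butyrate, and the share at least 1.5-fold lower was 0.494%, 0.489% and 0.616%. At these shares under 1 member in 48 would be past that fold, so a count of 0 does not set the family apart. The median log2 ratio of the 48 members was 0.021 with acetate, -0.017 with propionate and 0.0047 with butyrate, beside 0.0020, -0.0075 and -0.0029 for all genes. Above control lay 25, 21 and 25 of the 48, beside 50.5%, 47.8% and 49.0% of all genes.

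Among the 31 members at or above the floor, 23 had a span over the 4 pools under 1.2-fold (0.26 on the log2 scale). That was 74.2% of them, beside 72.6% of the 9410 genes, and the median spans were 0.19 and 0.18. The 9410 genes were not matched to the members in level, and members of high level are set beside genes of high level below. At least 1.2-fold higher were 3 of 31 with acetate (Cyp3a44, Cyp3a11 and Cyp2a5), 1 with propionate (Cyp2a5) and 2 with butyrate (Cyp2c38 and Cyp2c39). At least 1.2-fold lower were 0, 0 and 1 (Cyp3a11). Cyp3a44 was among the 31 only through its acetate pool, the one in which it was high, so its place in the acetate count is a description and no support. With shared probe sets averaged in, Cyp3a11 was at 0.23 with acetate, under 1.2-fold. Of the 9410 genes, 4.65%, 4.55% and 4.87% were that much higher and 5.26%, 5.64% and 3.73% that much lower with acetate, propionate and butyrate.

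**Figure D1:**
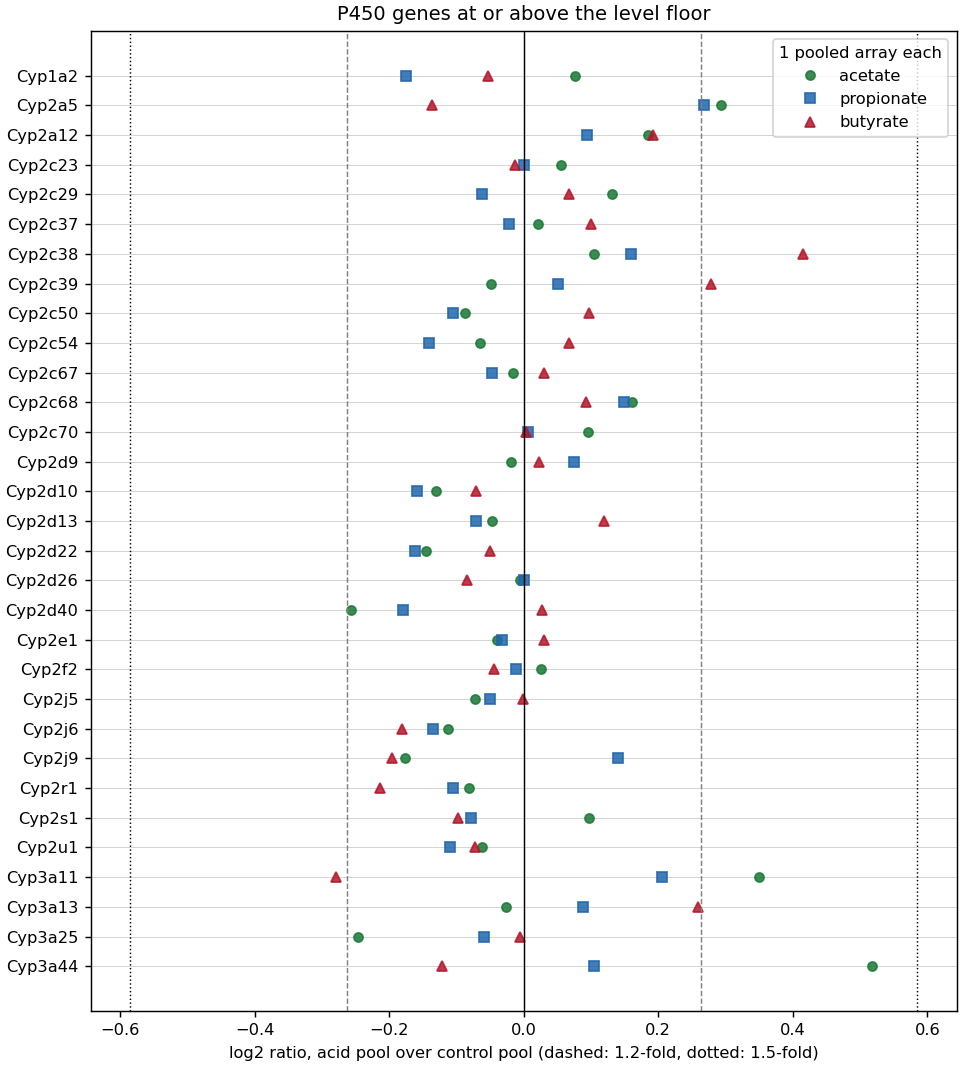
Log2 ratio of each acid pool over the control pool (x axis) for the 31 P450 genes at or above the level floor (y axis), with 1 point per acid from 1 pooled array each. Every point lies inside the dotted 1.5-fold lines, and 7 points, of Cyp2a5 (2), Cyp2c38, Cyp2c39, Cyp3a11 (2) and Cyp3a44, lie beyond the dashed 1.2-fold lines.

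**Figure D2:**
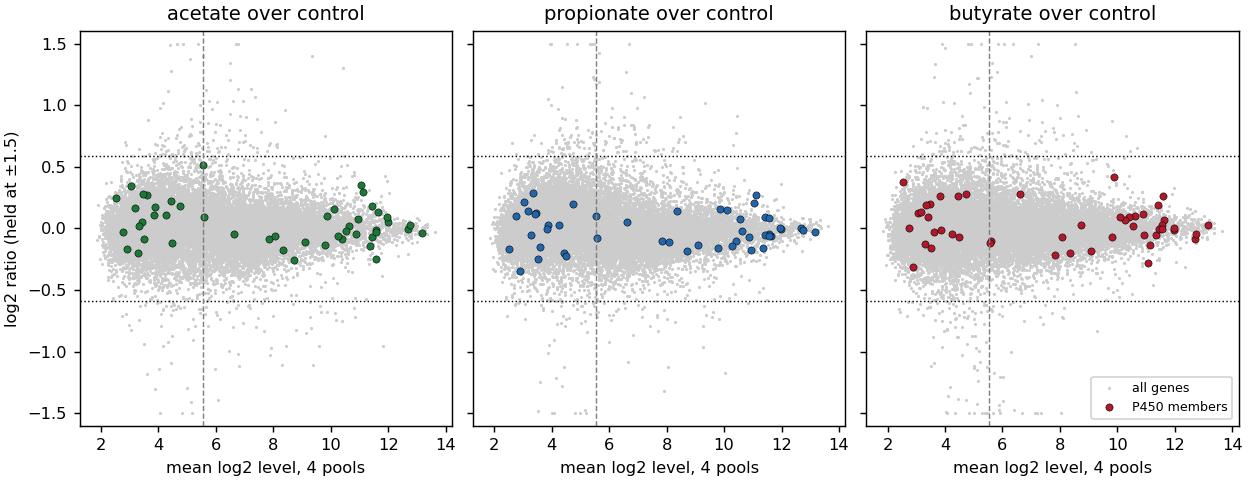
Log2 ratio over control (y axis, held at ±1.5) against mean log2 level over the 4 pools (x axis) for all 18820 genes in grey and the 48 P450 genes in colour, 1 panel per acid. The dashed line is the floor of 5.55 and the dotted lines mark 1.5-fold, which no P450 gene passes.

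Over all 48 members, 6, 2 and 5 were at least 1.2-fold higher with acetate, propionate and butyrate (6.73%, 7.58% and 6.4% of all genes), and 0, 1 and 2 that much lower (5.48%, 5.69% and 5.47%). The 17 members near background had ratios of at most 0.34, 0.35 and 0.37 in size. Among them, Cyp2d11 was above control by 0.19, 0.20 and 0.28, and Cyp2g1, an enzyme of the olfactory mucosa, by 0.28, 0.12 and 0.19. Cyp2j11 was below control by -0.17, -0.35 and -0.31, and Cyp2d12, Cyp2d34, Cyp2j12, Cyp2j13, Cyp2t4 and Cyp2w1 lay within 0.26 of it.

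Of the members, 21 had a mean level of 10 or more, as had 1022 genes. The median size of the log2 ratio to control among the 21 was 0.073 with acetate, 0.071 with propionate and 0.067 with butyrate. For the 1022 genes it was lower, at 0.056, 0.050 and 0.054. Among these 21, Cyp2a5 and Cyp3a11 were at least 1.2-fold higher with acetate (2.64% of the 1022) and Cyp2a5 with propionate (1.37%), and 0 with butyrate (1.17%). Cyp3a11 was at least 1.2-fold lower with butyrate (1.47%), and 0 members were with acetate (2.05%) or propionate (2.05%).

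Cyp3a11, the main mouse P450 induced through PXR and a broad drug oxidase, had the widest span among members well above the floor. Its level was 11.33 in the acetate pool, 11.19 in the propionate pool and 10.70 in the butyrate pool, against 10.98 in the control pool. Acetate and propionate were thus above control and butyrate below it. The log2 ratios were 0.35, 0.21 and -0.28, or 1.27-fold higher, 1.15-fold higher and 1.21-fold lower. Of the 9410 genes at or above the floor, 219 had an acetate ratio as high as that of Cyp3a11 and 301 a butyrate ratio as low.

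Markers of other cell types also differed between these pools. Kupffer cell markers, of the resident macrophages, were above control in 6 of 14 cases with acetate, 12 with propionate and 14 with butyrate, with medians of -0.15, 0.30 and 0.57. Their summed level on the linear scale was 7209, 8886 and 10299, against 7141 in control. Neutrophil and monocyte markers were above control in 1, 5 and 11 of 11 cases, beside 50.5%, 47.8% and 49.0% of all genes. Of the 11 markers, 4 lay at or above the floor. Their sums were 6414, 6641 and 8067, against 7508. Most of each sum was Lcn2, at 12.59, 12.62 and 12.81, against 12.80. Acute-phase genes, many but not all of them made mainly by hepatocytes in inflammation, were above control in 3, 6 and 11 of 14 cases, with medians of -0.048, -0.0047 and 0.038. Among them Orm2 was at -0.96 with acetate, and Saa3 was at -0.42 with acetate and 0.51 with butyrate. Stellate cell and fibroblast markers had medians of 0.44, 0.36 and 0.12 over 10 genes. The lowest Kupffer cell marker was at 5.69, 7.29 and 6.90, against 6.27, and with acetate that was close to the floor of 5.55. The part of these cells in the Cyp3a11 values was not tested.

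Cyp3a44, a female-biased Cyp3a gene in mouse liver, stood at 5.95 with acetate, 5.54 with propionate and 5.31 with butyrate, against 5.43 in control. Only the acetate pool was above the floor. The ratios were 0.52, 0.10 and -0.12, against a level near background, and have no exact size. With shared probe sets averaged in, the acetate ratio was 0.28. The order of the pools was that of Cyp3a11. A pair of further probe sets that carry the symbols Cyp3a41b, Cyp3a44, Cyp3a41a and Cyp3a11 together had ratios of 0.18 and 0.16 with acetate, 0.22 and 0.24 with propionate, and -0.31 and -0.36 with butyrate. Signal of these paralogs cannot be told apart there.

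Cyp3a25, next to Cyp3a11 on the chromosome, did not share its pattern. It had 11.40 with acetate, 11.59 with propionate and 11.64 with butyrate, against 11.65 in control. The acetate pool was the low one, 1.19-fold below control (-0.25), and the others lay at -0.059 and -0.0055. A probe set shared by Cyp3a59, Cyp3a57 and Cyp3a25 was also lowest with acetate (-0.37), with -0.092 after propionate and 0.0032 after butyrate. Cyp3a13, found in liver and intestine, was highest with butyrate, at 11.75, beside 11.47 with acetate and 11.58 with propionate, against 11.49 in control (0.26 with butyrate). Cyp3a16, a fetal and female-biased form, lay near background at 2.71, 2.84 and 2.75, against 2.74. Cyp3a57, also near background, had its largest ratio with propionate (0.29).

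In the Cyp2a subfamily, Cyp2a5, the mouse coumarin hydroxylase, had 11.31 with acetate, 11.29 with propionate and 10.88 with butyrate, against 11.02 in control. As for Cyp3a11, acetate and propionate were above control (0.29, which is 1.23-fold, and 0.27) and butyrate below it (-0.14). A probe set that Cyp2a5 shares with Cyp2a4 was above control with all 3 acids (0.47, 0.35 and 0.081), so the direction with butyrate differed between the probe sets. As high as Cyp2a5 were 344 of the 9410 genes with acetate and 408 with propionate. Cyp2a12, which hydroxylates steroids and bile acids, had 11.50, 11.41 and 11.50, against 11.31. All 3 acid pools were above control, by 0.18, 0.094 and 0.19. Cyp2a22 lay below the floor.

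**Figure D3:**
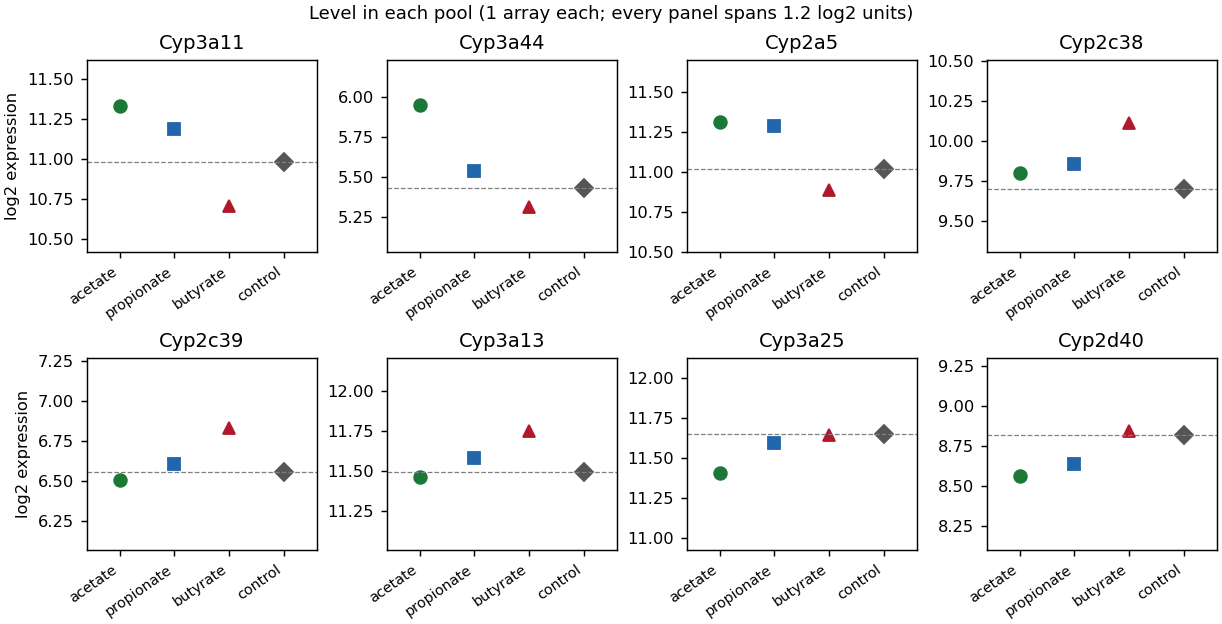
Log2 expression level (y axis) of 8 P450 genes in the acetate, propionate, butyrate and control pools (x axis), 1 array each, in panels that all span 1.2 log2 units, with the control level dashed. Cyp3a11, Cyp3a44 and Cyp2a5 are lowest with butyrate, Cyp2c38, Cyp2c39 and Cyp3a13 highest with it, and Cyp3a25 and Cyp2d40 lowest with acetate.

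The Cyp2c genes form the largest subfamily, with 13 members, 10 of them at or above the floor. Of those 10, 6 were above control with acetate, 4 with propionate and 9 with butyrate, beside 46.2%, 39.2% and 48.7% of the 9410 genes, with medians of 0.038, -0.011 and 0.080. The butyrate pool held the largest ratios. Cyp2c38, an arachidonic acid oxygenase, had 9.80, 9.86 and 10.12 after acetate, propionate and butyrate, against 9.70 in control. All acid pools were above control, and butyrate was 1.33-fold above it (0.42), a ratio that 173 of the 9410 genes reached. Its neighbour Cyp2c39, a retinoic acid hydroxylase, had 6.51, 6.61 and 6.84, against 6.56, with butyrate alone apart (0.28, 1.21-fold).

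The other Cyp2c genes were nearer to control. Cyp2c29, induced through CAR and PXR, had 11.73 with acetate, 11.54 with propionate and 11.67 with butyrate, against 11.60 in control. Cyp2c37, Cyp2c50 and Cyp2c54, oxygenases of polyunsaturated fatty acids, lay between 10.16 and 10.70 in all pools, and each was highest with butyrate, by 0.10, 0.10 and 0.067 over control. Cyp2c70, which in mice makes muricholic acids, had 12.03, 11.94 and 11.93, against 11.93. Cyp2c23, another arachidonic acid oxygenase, had 12.03, 11.98 and 11.96, against 11.98, and spanned only 0.069. Cyp2c67 had 11.55, 11.52 and 11.60, against 11.57, and Cyp2c68 was above control by 0.16, 0.15 and 0.092.

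The other Cyp2c genes, 3 in number, lay below the floor. Cyp2c55 and Cyp2c65, known from the intestine, had 4.59 and 2.66 with acetate, 4.17 and 2.25 with propionate and 4.63 and 2.79 with butyrate, against 4.37 and 2.41 in control. Both were lowest with propionate and highest with butyrate, near background throughout. Markers of intestinal epithelium were above control in 5, 3 and 10 of 10 cases, beside 50.5%, 47.8% and 49.0% of all genes. Their sums were 1326, 1129 and 2244, against 1154. Of the 10, 5 lay at or above the floor. With butyrate 4 of the 10 were at least 1.5-fold higher, beside 0.728% of all genes. Car1 was among these 4 and was also listed as a red cell marker. The 4 measured red cell markers, Car1 included, were above control in 0, 3 and 4 cases. The part of these cell types in the Cyp2c55 and Cyp2c65 values was not tested. Cyp2c66 had its largest ratio with acetate (0.34).

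In subfamily Cyp2d, 6 of 9 members were at or above the floor, and 0, 2 and 3 of them were above control with acetate, propionate and butyrate, beside the 46.2%, 39.2% and 48.7% of genes at or above the floor. Medians were -0.089, -0.12 and -0.014. Cyp2d40 had 8.56, 8.64 and 8.85, against 8.82, and so was 1.19-fold lower with acetate (-0.26). Cyp2d22 had 11.30, 11.29 and 11.40, against 11.45, and was below control in all acid pools, as was Cyp2d10 (-0.13, -0.16 and -0.071). Cyp2d26 had 12.70, 12.71 and 12.62, against 12.71. The male-biased testosterone hydroxylase Cyp2d9 had 10.51, 10.60 and 10.55, against 10.53, a span of 0.093. Cyp2d13 lay at most 0.12 from control.

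Cyp2e1, which oxidises ethanol and paracetamol, was one of the steadiest members, with 13.14, 13.15 and 13.21 after acetate, propionate and butyrate, against 13.18 in control. Cyp2f2, the periportal mouse P450 that activates naphthalene, had 12.78, 12.74 and 12.71, against 12.75. Both spanned under 0.1. Cyp2j5, an arachidonic acid oxygenase of liver and kidney, had 11.40, 11.42 and 11.47, against 11.47. Cyp2j6 was below control with each acid, by -0.11, -0.13 and -0.18. Cyp2j9 was above it with propionate (0.14) and below it with acetate (-0.18) and butyrate (-0.20).

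Cyp2r1, the vitamin D hydroxylase of the liver, had 7.86, 7.84 and 7.73, against 7.94. Every acid pool was below control, with butyrate lowest (-0.21). Cyp2u1, a fatty acid hydroxylase, was below control by -0.062, -0.11 and -0.073. Cyp2s1, found mostly in epithelia outside the liver, was near the floor at 5.70, 5.53 and 5.51, against 5.60.

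In family 1, Cyp1a2, which oxidises caffeine and arylamines, had 11.05 with acetate, 10.80 with propionate and 10.92 with butyrate, against 10.97 in control. Propionate was the lowest (-0.17) and acetate the highest (0.076). Cyp1a1, hardly expressed in liver without an inducer, lay near background at 3.86, 3.44 and 3.56, against 3.59, in the same order of acetate over propionate. Cyp1b1, mainly an enzyme of cells other than hepatocytes, had 4.00, 3.86 and 3.81, against 3.83. Its 2 probe sets differed in direction with propionate and with butyrate. Other targets of the receptor lay below the floor too, and Nqo1, a quinone reductase also driven by NRF2, had the largest ratio there (0.51 with acetate).

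By role, the 8 pericentral members were above control in 5, 2 and 5 cases with acetate, propionate and butyrate, with medians of 0.049, -0.047 and 0.048. Of genes with a mean of 10 or more, 48.7%, 44.2% and 54.9% were above control. Cyp2a5, Cyp2c29, Cyp2c37, Cyp2c50, Cyp2c54 and Cyp3a11 are also in the list of members induced through CAR or PXR below. The counts of these lists are therefore not separate results. The 10 pericentral genes that are not P450s were above control in 3, 1 and 6 cases, with medians of -0.037, -0.053 and 0.033, and 9 measured periportal genes had medians of 0.012, 0.036 and 0.025. None of the 10 pericentral genes was 1.5-fold from control, while the periportal Aldh1b1, an aldehyde dehydrogenase, was above it by 0.96 and 0.70 with acetate and propionate.

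The 7 members induced through CAR or PXR were above control in 5, 2 and 5 cases, beside 50.5%, 47.8% and 49.0% of all genes. Medians were 0.13, -0.062 and 0.067. Cyp3a11 and Cyp2a5 were among the 5 above control with acetate. They were the only 2 above it with propionate and the only 2 below it with butyrate. Of 13 measured targets of these receptors that are not P450s, 3 were at least 1.5-fold higher with acetate, 1 with propionate and 0 with butyrate (0.696%, 0.776% and 0.728% of all genes), with medians of 0.14, 0.0021 and -0.0054. The glutathione transferase Gstm3 had 11.25, 10.86 and 9.72, against 9.95, an order of pools like that of Cyp3a11, Cyp3a44 and Cyp2a5. Gsta4, another glutathione transferase, had ratios of 0.86, 0.39 and 0.0020. The transporter Abcb1a was higher with acetate (0.67) from a level below the floor. Above control were 8, 7 and 6 of the 13, beside the same shares of all genes. Others went the other way. Ces2a was below control by -0.30, -0.40 and -0.25 with acetate, propionate and butyrate, and Slco1a4 by -0.20, -0.45 and -0.25. The part of these receptors in any of these values was not tested.

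Of 7 listed female-biased P450s, a list that left out Cyp2b, only Cyp3a44 and Cyp3a16 had a probe set of their own. Among 7 measured female-biased genes that are not P450s, the medians were -0.074, -0.042 and 0.11, and among 7 male-biased ones 0.057, 0.051 and 0.045. Single genes lay further out, with the male-biased repressor Bcl6 at 0.73 with propionate and the female-biased Cux2 at -0.58 with acetate. The acetate level of Cux2 (5.33) lay below the floor, so this ratio has no exact size. Ntrk2, below the floor, was at 1.11 and 0.90 with acetate and propionate. Growth hormone signalling genes, which set this sex bias, had medians of -0.039, -0.064 and -0.0062 over 7 genes, with Cish, a feedback inhibitor, at -0.14, -0.45 and -0.29.

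Partners of the P450 enzymes were also close to control. Of the electron donors and related proteins, 6 were measured and none was 1.5-fold from control. The reductase gene Por was not analysed here, nor was CAR (Nr1i3). Cytochrome b5 itself, Cyb5a, had 12.39, 12.44 and 12.37, against 12.40. Among 7 genes of haem synthesis, 1, 1 and 2 were above control with acetate, propionate and butyrate, and none differed by 1.5-fold. Of the 9410 genes at or above the floor, 46.2%, 39.2% and 48.7% were above control. Alas1, the rate-limiting enzyme, had 11.90, 11.88 and 11.92, against 11.95, and Ppox, a late enzyme of the pathway, was below control by -0.30, -0.21 and -0.26. The haem-degrading enzyme Hmox1 had 9.05, 9.98 and 10.05, against 9.53, so acetate was below control (-0.48) and propionate and butyrate above it (0.46 and 0.52). Hmox1 is abundant in Kupffer cells, whose markers are given above, and their part in its values was not tested.

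Of 16 measured receptors and liver transcription factors, Onecut1, a hepatocyte factor, was the single one past 1.5-fold, with propionate (-0.68). Of all genes, 0.489% were at least 1.5-fold lower with propionate. PXR (Nr1i2) had 10.12, 10.16 and 10.04, against 10.11. These are transcript levels of a ligand-activated receptor, and its part in the Cyp3a11 values was not tested. The aryl hydrocarbon receptor gene Ahr was above control by 0.17, 0.33 and 0.28. Hnf4a, which drives many hepatocyte genes, was at -0.0097 with acetate, -0.0085 with propionate and -0.16 with butyrate.

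**Figure D4:**
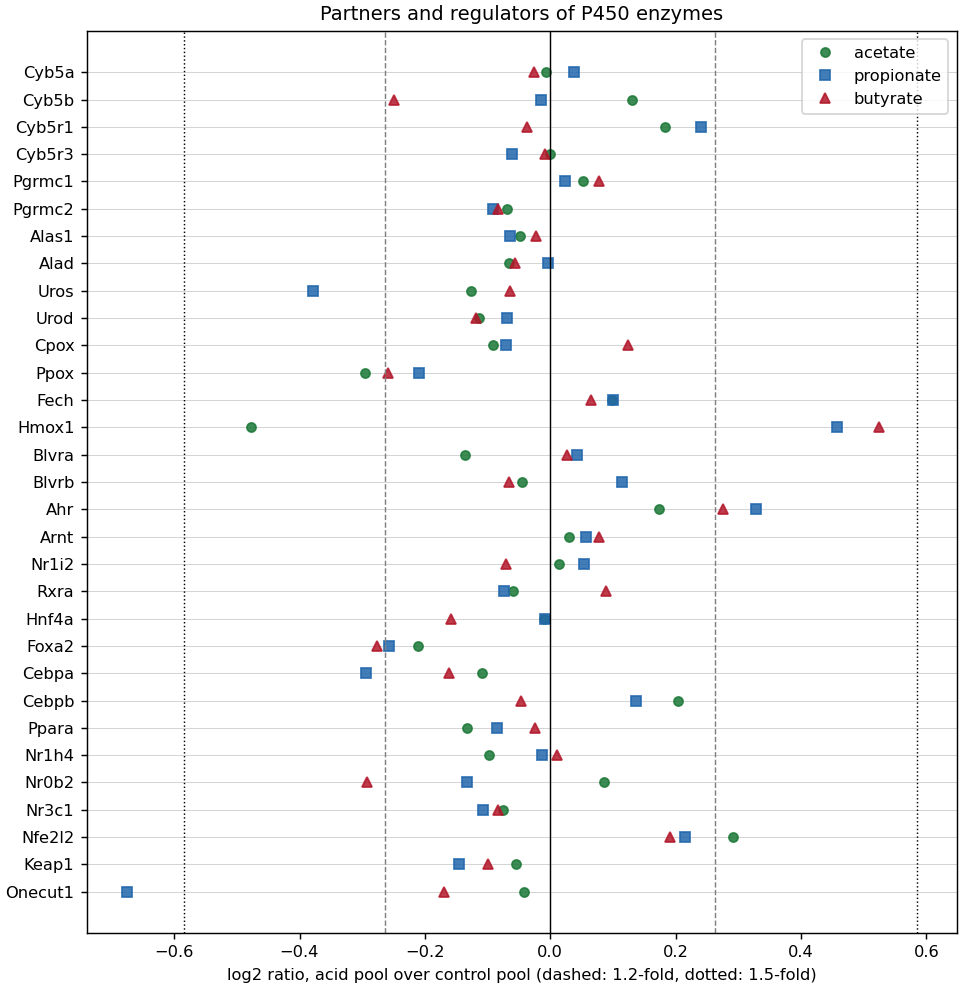
Log2 ratio of each acid pool over the control pool (x axis) for electron partners, haem synthesis and breakdown genes, and receptors and liver factors at or above the floor (y axis), 1 point per acid from 1 array each. Onecut1 with propionate (-0.68) lies beyond the dotted 1.5-fold lines, and Hmox1 is below control with acetate and above it with the other acids.

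The acids were also set against one another, in 3 pairs at the same molar rate and time, with no test. Butyrate against acetate gave the 2 members past 1.5-fold, both lower with butyrate. Neither stayed past it when shared probe sets were averaged in (-0.54 for Cyp3a11 and -0.55 for Cyp3a44). Cyp3a11 was 1.55-fold lower with butyrate than with acetate (-0.63), and Cyp3a44 was at -0.64, a ratio with no exact size since its butyrate level lay below the floor. Of all genes, 0.956% were that much lower and 0.914% that much higher, with 0 members higher. Of the 9410 genes, 67 had a ratio as low as that of Cyp3a11. Of the 1022 genes with a mean of 10 or more, 3 (0.294%) were at least 1.5-fold lower with butyrate than with acetate, Cyp3a11 among them. Cyp2a5 was lower as well (-0.43, 1.35-fold), while Cyp2c39 (0.33), Cyp2c38 (0.31), Cyp3a13 (0.29) and Cyp2d40 (0.28) were higher with butyrate.

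Butyrate against propionate gave 0 members past 1.5-fold in either direction, beside 0.425% of all genes higher and 0.845% lower. Cyp3a11 (-0.48, 1.40-fold lower) and Cyp2a5 (-0.40, 1.32-fold lower) had the lowest ratios at or above the floor, followed by Cyp2j9 (-0.34). Propionate against acetate likewise gave 0 members, beside 0.383% of genes higher and 0.213% lower. Cyp3a11 and Cyp2a5 were at -0.14 and -0.025, and the largest ratios at or above the floor were those of Cyp3a44 (-0.41) and Cyp2j9 (0.32). With shared probe sets averaged in, Cyp3a44 was at -0.096. At 1.2-fold and at or above the floor, 1 member was higher with propionate than with acetate and 1 lower (3.24% and 3.67% of the 9410 genes). With butyrate, 4 were higher than with acetate and 3 lower (7.28% and 6.25%), and 0 were higher than with propionate and 3 lower (6.59% and 4.1%). Cyp3a44 was the 1 lower with propionate and among the 3 lower with butyrate than with acetate. It was at the floor only through its acetate pool, so its place in these counts is a description and no support. Over all 48 members the counts were 2 and 4, 4 and 4, and 3 and 3 (5.08%, 4.5%, 6.84%, 7.73%, 6.22% and 7.42% of all genes, in the same order). Among the 21 members with a mean of 10 or more they were 0 and 0, 1 and 2, and 0 and 2. The shares of the 1022 genes at that level were 0.881%, 1.47%, 2.64%, 2.64%, 2.15% and 1.27%, in the same order. The 3 comparisons with control share the control pool, and each acid pool enters 2 of these pairs.

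**Figure D5:**
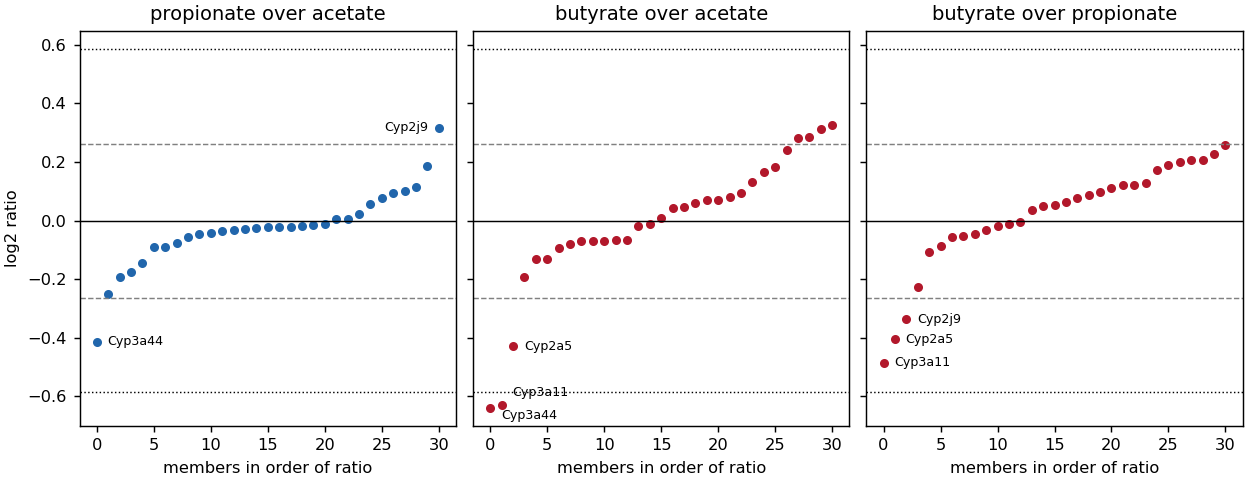
Log2 ratios between acid pools (y axis) of the 31 P450 genes at or above the floor, in rising order (x axis), for propionate over acetate, butyrate over acetate and butyrate over propionate. Dashed lines mark 1.2-fold and dotted lines 1.5-fold, which Cyp3a11 and Cyp3a44 pass in the middle panel.

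The tissue label was checked against markers. Of 12 hepatocyte markers 11 were measured, at levels between 12.05 and 13.39 in every pool, with median ratios of -0.0093, 0.0099 and -0.0071. Skeletal muscle markers were below control in 12 of 12 cases with butyrate (median -1.62, summed level 448, against 1665 in control), and pancreatic acinar markers in 9 of 9 cases with every acid (-0.95, -0.66 and -0.36). Of all genes, 50.5%, 47.8% and 49.0% were above control with acetate, propionate and butyrate. Other P450 families, 32 genes, had medians of 0.090, 0.019 and 0.066, with the bile acid enzymes Cyp7a1 (-0.65) and Cyp8b1 (-0.63) past 1.5-fold with acetate. Of all genes, 0.494% were at least 1.5-fold lower with acetate.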

How the data were processed

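Liver RNA of 22 mice, in 4 pools of 4 or 6 mice (500 ng per mouse), was measured on 4 arrays, 1 per group. The authors deposited log2 expression values per probe set; RMA, which corrects background, makes distributions alike and summarises probes, is named in the submitters' processing notes, without version. Array medians lay between 5.11 and 5.12, and values between 1.60 and 13.7. Of 35556 probe sets, 21218 had 1 symbol in the platform annotation, 1881 several and 12457 none. Probe sets of a symbol were averaged, giving 18820 genes. All 48 members matched a RefSeq gene by Entrez ID and 0 symbols changed.

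A comparison was the log2 ratio of 2 arrays, 6 in all, counted at 1.5-fold and 1.2-fold, with no p-value. The number of arrays limits the precision. The calculation was checked on simulated data, and no measured ratio was tested. Named are the 15 members of highest mean level, those past 1.2-fold at or above the floor, and members of role lists; other members given singly were picked after their values were seen. The members, lists and thresholds were chosen with earlier results of these data known. Alternatives were cyclic loess (limma 3.58.1, R 4.3.3), centring, a floor, probe set choice, shared probe sets, the mean of the other 3 pools as reference, and other folds. Python 3.11.15, pandas 2.3.3 and Biopython 1.88 were used. The labels name no batch.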

Additional observations from a re-analysis of the deposited data

Results flagged for a closer look

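Cyp3a11 was on opposite sides of control with different acids, at a log2 ratio of 0.35 with acetate and -0.28 with butyrate. The difference between these pools was not tested, since each is 1 array.

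A probe set that carries the symbols of both Cyp2a5 and Cyp2a4, and so entered no comparison of genes, was above control by 0.47 with acetate and 0.35 with propionate. Its levels were 11.49, 11.37 and 11.10 in the acetate, propionate and butyrate pools, against 11.02 in control.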

How the results depend on the processing

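The counts depended mainly on the fold. At 1.2-fold over all 48 members, 6 were higher with acetate, 2 with propionate and 5 with butyrate, and 0, 1 and 2 were lower. Between acids at 1.2-fold, 2 were higher and 4 lower with propionate than with acetate, 4 and 4 with butyrate than with acetate, and 3 and 3 with butyrate than with propionate. At 2-fold the count of members lower with butyrate than with acetate was 0, not 2, and it was also 0 when probe sets with several symbols were averaged in, because Cyp3a11 was then at -0.54 and Cyp3a44 at -0.55. No median moved by more than 0.040. For the 12 genes followed singly, 17 ratios reached 1.2-fold, and all 75 of their alternative values kept the sign, 71 of them also past 1.2-fold. The 4 below 1.2-fold were Cyp3a11 with acetate (0.23) and Cyp3a44 with propionate against acetate (-0.096), both with shared probe sets, and Cyp2a5 with acetate (0.25) and propionate (0.22), both with the average of the remaining pools as reference. Shared probe sets also took Cyp3a44 with acetate to 0.28, and the other reference took Cyp3a11 with butyrate to -0.46. No paired analysis was possible because each group has 1 array. Levels below the floor limit 17 of the 48 members.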

Other observations

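Among P450 genes of other families, Cyp26b1, which breaks down retinoic acid, had 6.17 with acetate, 6.24 with propionate and 6.34 with butyrate, against 6.66 in control (-0.49, -0.41 and -0.32). Cyp4a14, a fatty acid hydroxylase controlled by PPARalpha, had 12.08, 12.06 and 12.03, against 11.70 (0.38, 0.36 and 0.33). Neither passed 1.5-fold, and the 3 ratios of each share the control pool. They were chosen after their values were seen.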
